A study of Mus musculus with 17 samples.

Results

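The genes described here are 39 genes of ribosome biogenesis and Myc-type growth, out of 23420 genes in the deposited count table. They were taken by symbol for their known roles and not by a cutoff on measured values, but with earlier results of these data known. All 39 had a row in the table and passed the filter on low counts in every comparison. By role, 4 encode abundant multifunctional nucleolar proteins. Some core proteins of box C/D small nucleolar ribonucleoproteins (snoRNPs) are encoded by 3, and some core proteins of box H/ACA snoRNPs by 3. A snoRNP chaperone is encoded by 1, and RNA polymerase I or its initiation factors by 5. The rest encode 9 small-subunit assembly factors, 11 large-subunit assembly factors and 3 enzymes of growth metabolism. Their levels were read in 17 mouse RNA sequencing libraries and set beside the level of Myc in each library.

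Every group carried the same starting genotype. The cells came from bone marrow of C57BL/6 mice with a knock-in of R172H p53, which is a mutant tumour suppressor that the controls carry too. The KO clones (n = 2) were clones of first-generation tumour line cells labelled as p53 knockout, and the Mut clones (n = 2) were clones of such cells with the mutant p53 kept. The second-generation tumour lines (TL2, n = 4) were derived from tumours that grew after injection of first-generation lines. The first-generation tumour lines (TL1, n = 6) were derived from tumours of mesenchymal stem cells. The MSC group (n = 3) was cultured bone marrow mesenchymal stem cells. Tumour-derived cells were kept on plates coated with agar, in medium with leukaemia inhibitory factor, and MSC in their own medium, at passages between 2 and 20, so culture and group cannot be told apart in a comparison of tumour lines with MSC. A number from 1 to 3 stands in the titles of the libraries other than the clones, which is part of the library names used here (lines of 1 group that share a number have a letter added); the clones are numbered in order only, and the labels do not say which line they came from or that libraries of a group were separate cultures or animals. The p-values below hold for the spread among the libraries sequenced, and part of it may be technical.

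Ribosomes are built in the nucleolus. RNA polymerase I transcribes the ribosomal RNA precursor, snoRNPs guide its methylation and pseudouridylation, and a series of assembly factors folds, cleaves and exports the small and large subunit precursors. Many of these factors, and enzymes that make polyamines and nucleotides for growth, are textbook targets of the transcription factor Myc, which with its partner Max binds DNA at the E-box CACGTG. Ribosome production is high in dividing and tumour cells, and the tumour suppressor p53 is known to respond when it fails.

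The E-box was looked for in RefSeq promoter windows of GRCm38.p6 that run from 250 bases before to 50 bases after each annotated start. Windows were at hand for 32 of the 39 genes, and 8 of them held the exact motif (25.0%), namely Mybbp1a, Nle1, Nop2, Pes1, Rrn3, Tsr1, Utp20 and Wdr43. Among all 27025 genes with a window, 8.09% held it, and 14 of 74 other ribosome biogenesis genes with a window did (18.9%). The motif reads the same on both strands. The windows below are those of the 3 genes with the highest slope on Myc (defined further on) among genes that hold the motif, and of Wdr12, the gene with the highest slope on Myc of all, whose window holds none. Capitals mark the E-box; sequences run 5′ to 3′ on the strand of the gene, Nle1 at chr11:82908346-82908645 (minus strand), Pes1 at chr11:3963725-3964024 (plus strand), Mybbp1a at chr11:72441077-72441376 (plus strand) and Wdr12 at chr1:60098451-60098750 (minus strand, 1 of 3 annotated windows, none of which holds the motif).
Nle1: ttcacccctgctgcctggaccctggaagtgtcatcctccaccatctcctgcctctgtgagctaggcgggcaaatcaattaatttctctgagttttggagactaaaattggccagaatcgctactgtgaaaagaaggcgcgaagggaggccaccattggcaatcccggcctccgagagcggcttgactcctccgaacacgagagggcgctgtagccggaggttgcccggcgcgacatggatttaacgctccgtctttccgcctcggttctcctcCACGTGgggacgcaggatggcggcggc
Pes1: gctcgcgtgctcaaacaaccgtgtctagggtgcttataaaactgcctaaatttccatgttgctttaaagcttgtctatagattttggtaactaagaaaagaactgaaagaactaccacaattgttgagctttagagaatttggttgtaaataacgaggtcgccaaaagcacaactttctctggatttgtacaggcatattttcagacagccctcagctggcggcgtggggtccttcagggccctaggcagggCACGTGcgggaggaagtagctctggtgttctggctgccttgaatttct
Mybbp1a: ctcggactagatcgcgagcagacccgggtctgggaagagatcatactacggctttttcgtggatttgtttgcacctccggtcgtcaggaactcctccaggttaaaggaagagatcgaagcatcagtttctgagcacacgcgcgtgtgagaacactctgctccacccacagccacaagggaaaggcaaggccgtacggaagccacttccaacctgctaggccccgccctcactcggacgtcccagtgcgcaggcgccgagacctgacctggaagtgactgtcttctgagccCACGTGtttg
Wdr12: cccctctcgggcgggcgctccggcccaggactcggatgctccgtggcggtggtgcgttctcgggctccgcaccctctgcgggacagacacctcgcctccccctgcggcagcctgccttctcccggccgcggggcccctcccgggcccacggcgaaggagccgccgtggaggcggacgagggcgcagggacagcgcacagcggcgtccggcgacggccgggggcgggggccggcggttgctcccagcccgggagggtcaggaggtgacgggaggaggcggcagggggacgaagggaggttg
In these windows the E-box began 24 bases into the transcribed side in Nle1, 3 bases in Pes1 and 41 bases in Mybbp1a, counting the start site as 1. A match is a description of the letters, not of binding.

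Values are given as CPM, counts scaled to a common library size after TMM normalization (trimmed mean of M values), so each is relative to the other RNAs of its library; fewer cells of a type and less RNA per cell cannot be told apart. Total counts per library were between 12215025 and 15962341. MSC libraries carried the 11 stromal markers checked at a summed 17734 to 25759.5 CPM and the haematopoietic ones at 11.1 to 34.4 CPM. Per kilobase of exon, over the median of 17 libraries, the highest of the 39 were Npm1, a nucleolar chaperone, at 816 CPM per kb, Srm, spermidine synthase, at 176, and Nop56, a box C/D core protein, at 165. The lowest were Wdr12 at 4.38 CPM per kb and Polr1b, the second-largest subunit of RNA polymerase I, at 8.50. The length used was the union of exons over coding transcripts, 10613 bases for Wdr12. Without division by length, Wdr12 at a median of 46.5 CPM lay above Polr1b (39.4 CPM) and Nle1 (29.5 CPM). Npm1 has near-identical processed copies in the genome, so its counts are uncertain.

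The 39 genes moved largely together from library to library, and 3 sets of libraries stood out. In the first-generation line TL1 3a, 33 of the 39 genes had their lowest level of all 17 libraries. In it, 0 of the 39 were above their own median. Of all genes in the table that passed a filter over 17 libraries, 12.4% were lowest there and 49.4% were above their median. In Mut clone 2, 17 of the 39 had their highest level, against 11.2% of all genes. The lines TL2 1, TL1 2a and TL1 2b had 38, 36 and 37 of the 39 genes above the median, against 45.8%, 46.3% and 47.0% of all genes. Mut clones 1 and 2 had 33 and 36, against 45.1% of all genes in each. At the other end, TL2 2b and MSC 3 had 2 each, against 46.6% and 47.7% of all genes. The median deviation of the 39 genes from their own medians, in log2 CPM, was 0.03 and 0.12 in KO clones 1 and 2, 0.58 and 0.76 in Mut clones 1 and 2, 0.68 in TL2 1, 0.56 in TL1 2a, 0.57 in TL1 2b and -1.09 in TL1 3a.

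**Figure D1:**
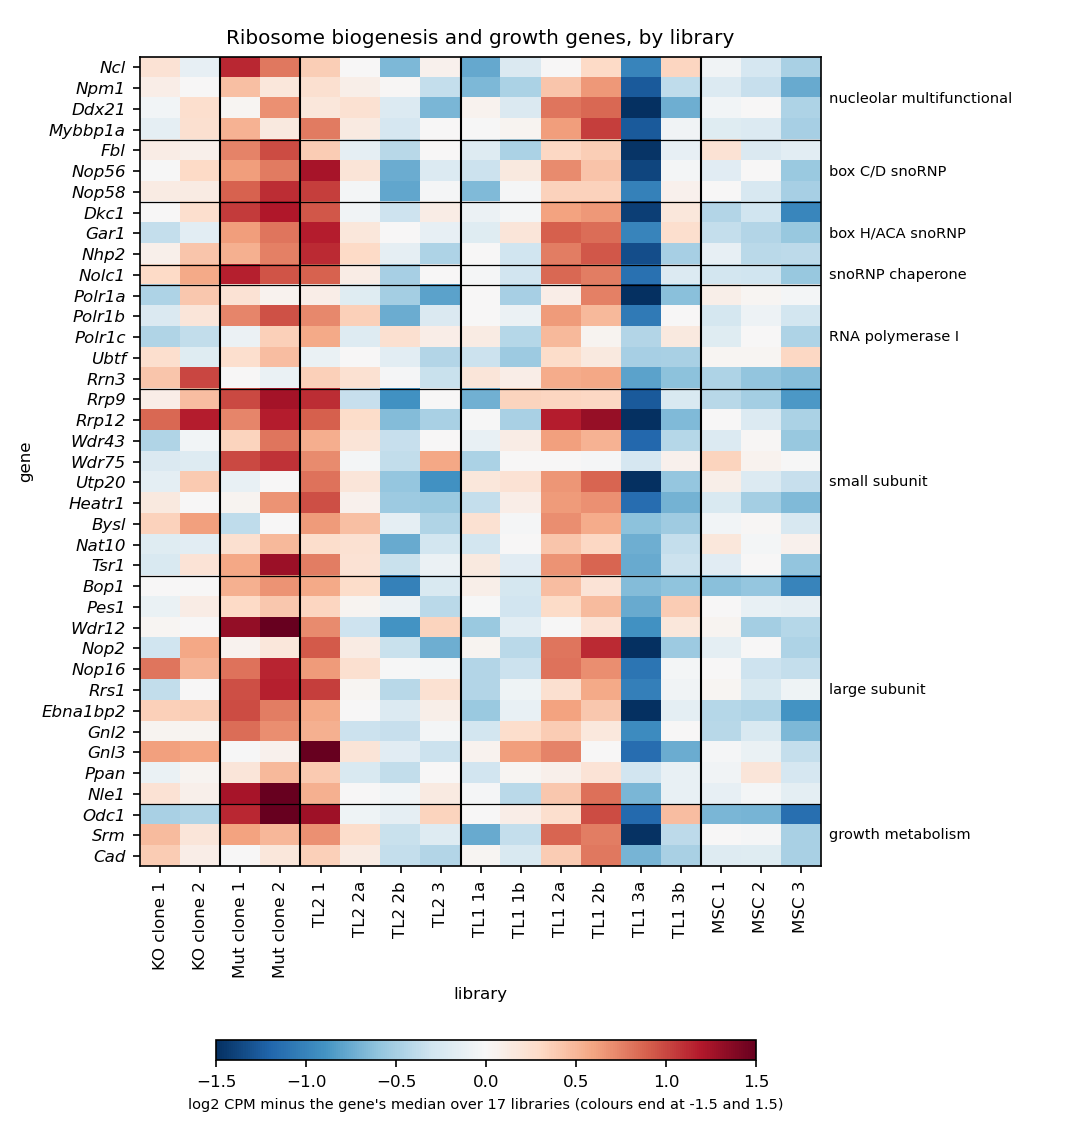
Heat map of the 39 genes (rows, grouped by role) in 17 libraries (columns, grouped as KO clone, Mut clone, TL2, TL1 and MSC). Colour is log2 CPM minus the gene's own median over the 17 libraries, red above it and blue below it. The column of TL1 3a is blue for nearly every gene (median -1.09), and those of both Mut clones, TL2 1, TL1 2a and TL1 2b are mostly red (medians 0.58, 0.76, 0.68, 0.56 and 0.57).

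The size of this variation differed between genes. Rrp12, which acts in export of subunit precursors, ran from 13.3 CPM in TL1 3a to 102 CPM in TL1 2b, the widest span of the 39 at 7.67-fold. Ppan, a large-subunit factor, spanned 1.80-fold and Ubtf, the upstream binding factor of RNA polymerase I, 2.01-fold, with a median span over the 39 genes of 4.55-fold. Proliferation genes followed the same libraries in part. The median deviation of 18 proliferation genes was -1.35 in TL1 3a, 0.88 in TL2 1, 0.70 in TL1 2a and 0.66 in TL1 2b, but 0.14 and -0.66 in Mut clones 1 and 2. The part of proliferation in the levels of the 39 genes was not tested.

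The first question was what changed with loss of the mutant p53 gene, in KO against Mut clones. Trp53 itself had 80.8 and 89.6 CPM in KO clones, against 358 and 280 CPM in Mut clones, a log2 change of -1.89 ± 0.226 (SE; adjusted p = 0.00259, edgeR quasi-likelihood test with Benjamini-Hochberg adjustment over 12238 genes). Myc had 137 and 136 CPM in KO clones, against 1762 and 1987 CPM in Mut clones, a log2 change of -3.76 ± 0.222 (edgeR adjusted p = 0.000179).

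In the same comparison 13 of the 39 genes fell and 0 rose by edgeR; DESeq2 called 17 lower and 3 higher (Rrn3, Bysl and Gnl3), against 14.5% and 16.8% of all genes. The background was 12% of all genes called lower (1466) and 14.2% called higher (1734), so genes called lower were more frequent among the 39 than among all genes tested, as a description without a test. The log2 change was below 0 for 32 of the 39, with a median of -0.52 against 0.0050 over all genes. Summed over the 39, the level was 8433 and 8756 CPM in KO clones, against 12527 and 12502 CPM in Mut clones. In 27 of the 39 both KO clones lay below both Mut clones, and in 3 (Rrn3, Bysl and Gnl3) both lay above; over all genes tested these shares were 35.1% and 34.6%. At an unadjusted p under 0.05 there were 23 of the 39, against 40.4% of all genes in either direction.

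Odc1, ornithine decarboxylase, the rate-limiting enzyme of polyamine synthesis and a classic Myc target, fell most. It had 225 and 231 CPM in KO clones, against 690 and 973 CPM in Mut clones, a log2 change of -1.85 ± 0.239 (adjusted p = 0.00344, edgeR). Its levels elsewhere were 758, 301, 286 and 397 CPM in TL2 1, 2a, 2b and 3, between 141 and 622 CPM with a median of 357 in TL1, and 196, 194 and 143 CPM in MSC. KO clones were thus below all 4 TL2 lines and above all 3 MSC libraries, and TL2 1 was the only tumour line within the range of the Mut clones. The other 2 growth enzymes were not called: Srm had 326 and 266 CPM in KO clones, against 358 and 332 CPM in Mut clones, and Cad, the multifunctional enzyme that starts pyrimidine synthesis, 228 and 187 CPM against 174 and 196 CPM.

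Among large-subunit factors 4 of 11 fell. Wdr12, which with Pes1 and Bop1 forms the PeBoW complex of ribosomal RNA processing, had 47.3 and 46.5 CPM in KO clones, against 116 and 145 CPM in Mut clones (log2 change -1.46 ± 0.222, edgeR adjusted p = 0.00618). The Mut clones were the highest of all 17 libraries for this gene, above 76.2 CPM in TL2 1, the next highest, and 37.3, 24.9 and 58.6 CPM in TL2 2a, 2b and 3; TL1 ran between 24.7 and 53.7 CPM and MSC had 47.6, 32.5 and 34.6 CPM. Its partners were not called, with log2 changes of -0.58 for Bop1 and -0.33 for Pes1. Nle1, a factor released late in large-subunit maturation, had 34.4 and 31.1 CPM in KO clones, against 69.5 and 119 CPM in Mut clones (log2 change -1.51 ± 0.302, edgeR adjusted p = 0.0149). Rrs1, an assembly factor of the large subunit, had 56.5 and 73.2 CPM in KO clones, against 143 and 164 CPM in Mut clones (log2 change -1.23 ± 0.230). Gnl2, a nucleolar GTPase, had 128 CPM in both KO clones, against 223 and 202 CPM in Mut clones (log2 change -0.71 ± 0.195). Gnl3, nucleostemin, a related GTPase, was higher in both KO clones, with 200 and 197 CPM in KO clones, against 130 and 137 CPM in Mut clones (log2 change 0.59); edgeR did not call it (adjusted p = 0.0640) and DESeq2 did (adjusted p = 0.0218). Ebna1bp2, a nucleolar assembly factor, had 189 and 190 CPM in KO clones, against 290 and 250 CPM in Mut clones (log2 change -0.50, edgeR adjusted p = 0.112). Nop16, also a nucleolar protein, had 98.6 and 80.6 CPM in KO clones, against 99.4 and 125 CPM in Mut clones (log2 change -0.31), and neither was called.

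Among small-subunit factors 2 of 9 fell. Wdr75, a processome protein that acts with RNA polymerase I transcription, had 76.1 and 77.1 CPM in KO clones, against 175 and 187 CPM in Mut clones (log2 change -1.22 ± 0.196, edgeR adjusted p = 0.00728). The KO clones averaged 76.6 ± 0.712 CPM (SD, n = 2), and both lay below both Mut clones, as for 35.1% of all genes tested. Across the other lines Wdr75 had 145, 86.3, 68.0 and 132 CPM in TL2 1, 2a, 2b and 3. It had between 63.4 and 92.2 CPM in TL1, and 111, 91.2 and 87.7 CPM in MSC. Rrp9, a protein of the processome snoRNP, had 76.6 and 98.7 CPM in KO clones, against 142 and 169 CPM in Mut clones (log2 change -0.81 ± 0.229, edgeR adjusted p = 0.0434). Bysl, bystin, had 86.6 and 105 CPM in KO clones, against 52.4 and 68.2 CPM in Mut clones, and was not called by edgeR (adjusted p = 0.0778) but was by DESeq2 (adjusted p = 0.0463). Nat10, an RNA acetyltransferase, had 54.3 and 55.5 CPM in KO clones, against 73.0 and 86.8 CPM in Mut clones, and was not called (log2 change -0.52, edgeR adjusted p = 0.119).

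Of the snoRNP core proteins 4 of 6 fell. Dkc1, the pseudouridine synthase dyskerin, had 128 and 153 CPM in KO clones, against 265 and 294 CPM in Mut clones (log2 change -0.98 ± 0.206, edgeR adjusted p = 0.0176). Its partner Gar1 had 34.6 and 39.8 CPM in KO clones, against 68.1 and 77.4 CPM in Mut clones (log2 change -0.95 ± 0.223), and the third, Nhp2, was not called at -0.38. For Dkc1 and Gar1 both KO clones lay below both Mut clones, as they did for 35.1% of all genes tested. In the box C/D core, Fbl, fibrillarin, the RNA methyltransferase, had 170 and 166 CPM in KO clones, against 264 and 310 CPM in Mut clones (log2 change -0.75 ± 0.199). Nop58 had 203 and 204 CPM in KO clones, against 346 and 404 CPM in Mut clones (log2 change -0.87 ± 0.198). Nop56, their partner, missed the threshold at -0.53 (edgeR adjusted p = 0.108), as did the chaperone Nolc1 at -0.60 (edgeR adjusted p = 0.0813).

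RNA polymerase I genes were divided. Polr1b had 33.8 and 44.6 CPM in KO clones, against 65.7 and 76.2 CPM in Mut clones (log2 change -0.84 ± 0.244, edgeR adjusted p = 0.0466), while the largest subunit, Polr1a, had 103 and 187 CPM against 165 and 148 CPM and a log2 change of -0.09. Rrn3, the initiation factor that recruits the polymerase to its promoter, was higher in both KO clones, at 145 and 217 CPM in KO clones, against 109 and 101 CPM in Mut clones (log2 change 0.80); edgeR did not call it (adjusted p = 0.0584) and DESeq2 did (adjusted p = 0.0211). Polr1c, a subunit shared with RNA polymerase III, had 43.3 and 45.8 CPM in KO clones, against 56.1 and 76.3 CPM in Mut clones, and was not called (log2 change -0.55, edgeR adjusted p = 0.136). Of the multifunctional proteins, Ncl, nucleolin, had 1307 and 1038 CPM in KO clones, against 2472 and 1943 CPM in Mut clones (log2 change -0.90 ± 0.240, edgeR adjusted p = 0.0365). Npm1, Ddx21 and Mybbp1a, at log2 changes of -0.25, -0.27 and -0.27, were not called. Rn45s, named for the ribosomal RNA precursor, had 9206 and 44786 CPM in KO clones, against 10439 and 9467 CPM in Mut clones. So 1 KO clone stood apart from the other 3 libraries. These counts, from total RNA, do not tell precursor from mature ribosomal RNA. Without the Rn45s counts the same number, 13 of the 39, was called lower.

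**Figure D2:**
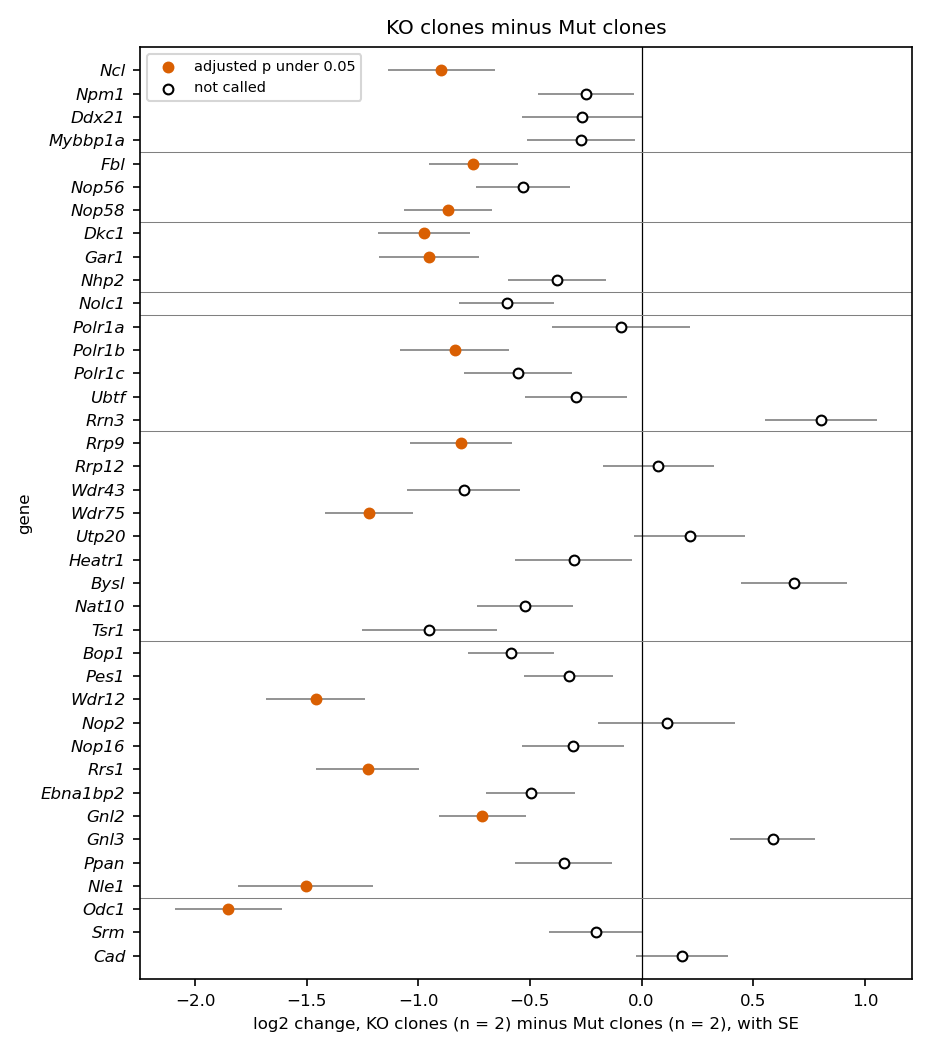
Log2 change, KO clones minus Mut clones (n = 2 each), for the 39 genes in order of role, with SE. Filled points are the 13 genes called at an adjusted p under 0.05, all left of 0 with Odc1 farthest at -1.85; open points were not called by edgeR, with Rrn3 farthest to the right at 0.80.

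These calls rest on few libraries. The number of the 39 called lower was 2 without KO clone 1, 3 without KO clone 2, 7 without Mut clone 1 and 3 without Mut clone 2, and Odc1 and Wdr12 were called in all 4 of these fits, in which the lone clone of a group is assumed to vary like the others. A fit of all 17 libraries, which shares 1 estimate of the spread over 5 groups, called 2 of the 39, Wdr75 and Nle1, against 2.23% of all genes called lower and 3.71% called higher; the other 11 lost their call there, Odc1 at an edgeR adjusted p of 0.0551 and Wdr12 at 0.0636. No gene of the 39 was called in every one of these 5 fits. The leave-one-out fits called 1648, 1375, 1755 and 1347 of all genes, against 3200 with 4 clones. The KO and Mut clones differed in more than these genes: of 11 mesenchymal stromal markers 3 were called higher (Pdgfrb with 214 and 255 CPM in KO clones, against 9.42 and 2.39 CPM in Mut clones, Cxcl12 and Col1a1) and 2 lower (Ly6a and Pdgfra), and the epithelial keratin Krt18 had 0.236 and 0.0797 CPM in KO clones, against 110 and 34.1 CPM in Mut clones. The summed level of the 11 stromal markers was 2687 and 2768 CPM in KO clones, against 2012 and 1382 CPM in Mut clones. Of 9 haematopoietic markers 8 were in the table. Their sum was 7.01 and 7.17 CPM in KO clones, against 18.1 and 13.1 CPM in Mut clones. Of the 3 tested, Csf1r was called higher in KO clones (log2 change 3.04), Cd14 was called lower (-1.95) and Cd68 was not called (-1.28). The sum of 4 epithelial markers was 0.551 and 1.12 CPM in KO clones, against 111 and 35.1 CPM in Mut clones. The part of cell state in the fall of the 39 genes was not tested.

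Over all genes tested between KO and Mut clones, 12% were called lower and 14.2% higher, beside which the lists below are to be read. Beyond the 39 genes the same comparison gave 21 lower and 1 higher of 90 other ribosome biogenesis genes, with a median log2 change of -0.41. Among the lower were Nmd3, the export adaptor of the large subunit (log2 change -1.39), Imp4 (-1.55), a small-subunit processome protein, Pelp1 (-1.17) and the helicase Ddx18 (-1.01); Ltv1, a small-subunit export factor, was higher (0.92). Of 15 other RNA polymerase I genes 4 were lower, Twistnb (-1.37), Polr2e (-1.12), Taf1a (-1.27) and Polr2f (-0.95). Of 24 nucleotide and polyamine genes, 22 of them tested, 9 were lower, among them Sms, spermine synthase (-1.43), and the purine synthesis enzymes Adsl (-1.24) and Pfas (-0.98), and 1 was higher, Impdh1 (1.19). Of 79 cytosolic ribosomal protein genes 9 were lower (Rpl7 at -1.08, Rps29, Rplp2 and Rpl28 among them), 2 higher (Rpl41 and Rpl24), with a median of -0.16. Hosts of snoRNAs were split, with Snhg6 (-1.29), Gas5 (-1.52) and Snhg12 (-2.19) lower and Snhg3 higher (1.72) of 9 in the table. Proliferation genes mostly lay the other way, with 16 of 18 above 0, where 50.3% of all genes were, and a median of 0.60. Of the 18, 3 were called higher in KO clones and 0 lower, against 14.2% and 12% of all genes. Rrm2, a ribonucleotide reductase subunit, had 341 and 391 CPM in KO clones, against 82.9 and 73.5 CPM in Mut clones, and the replication helicase genes Mcm5 and Mcm4 had log2 changes of 1.52 and 1.31.

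Promoter windows were at hand for 10 of the 13 genes that fell, and 1 of these, that of Nle1, held the E-box. Of the other 26 genes, 22 had a window and 7 held it (31.8%).

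**Figure D3:**
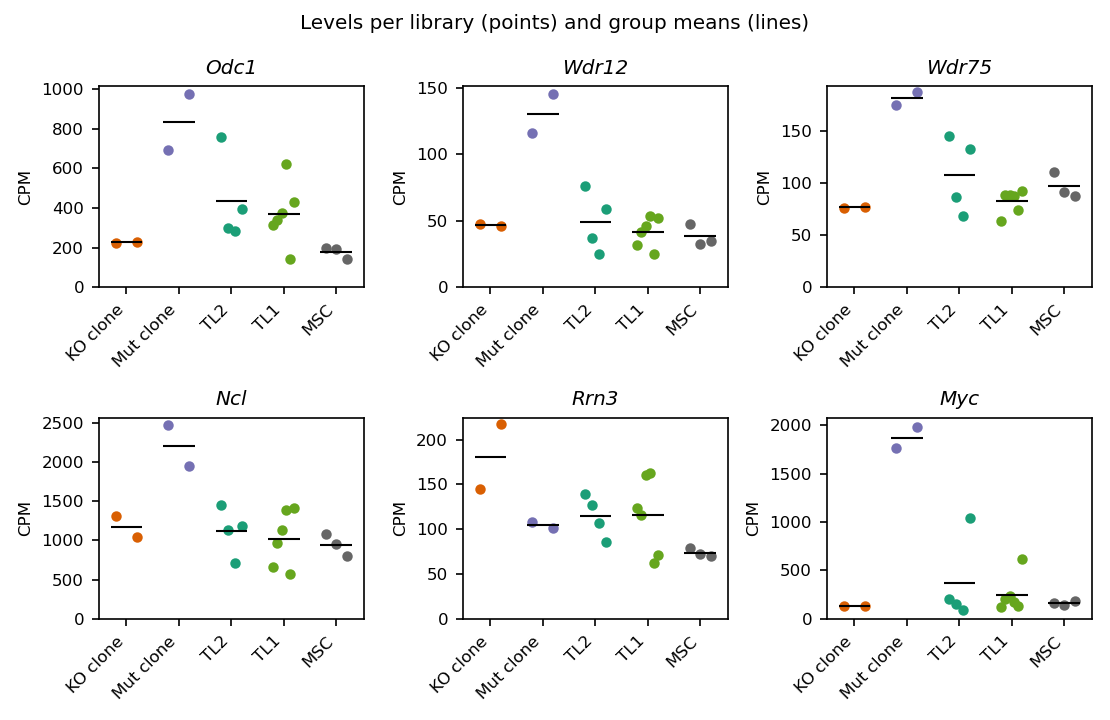
CPM of Odc1, Wdr12, Wdr75, Ncl, Rrn3 and Myc in the 17 libraries (points) by group, with group means as lines. Both Mut clones lie above the KO clones for Odc1 (690 and 973 CPM), Wdr12, Wdr75, Ncl and Myc, and below them for Rrn3; Myc is also high in TL2 3 (1042 CPM) and TL1 3b (620 CPM).

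The second question was whether the tumour lines differed from the MSC group. None of the 39 genes was called by edgeR, against a background of 3.86% of 13262 genes called higher (512) and 4.79% called lower (635). At an unadjusted p under 0.05 there were 4 of the 39, against 26.4% of all genes, and DESeq2 called 1 and limma-voom 0. The direction was mostly upward in the mean of TL1 and TL2, with 34 of 39 above 0, where 56.4% of all genes were, and a median log2 change of 0.36 against 0.10 over all genes. In no gene of the 39 did the tumour lines and MSC separate without overlap. Over all genes tested, 5.04% had all tumour lines above MSC and 7.53% had all below.

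Odc1 came nearest to a call. It had 758, 301, 286 and 397 CPM in TL2 1, 2a, 2b and 3 and between 141 and 622 CPM in TL1, against 196, 194 and 143 CPM in MSC, with a log2 change of 1.21 ± 0.405 (edgeR adjusted p = 0.0807). TL1 3a, at 141 CPM, was the only tumour line that did not exceed the MSC libraries, and without it Odc1 was called (1.29, edgeR adjusted p = 0.0287), with a median of 0.43 for the 39; without TL2 1 that median was 0.21. The number of all genes called, 1147, was 349, 687 and 304 without MSC 1, 2 and 3. The others at an unadjusted p under 0.05 were Gar1 (0.84), Bop1 (0.73) and Rrn3 (0.68), with edgeR adjusted p values of 0.184, 0.167 and 0.149. Rrn3 had 139, 128, 107 and 86.2 CPM in TL2 and between 62.0 and 163 CPM in TL1, against 78.9, 71.9 and 69.6 CPM in MSC. All 4 TL2 lines and TL1 apart from TL1 3a and TL1 3b (70.7 CPM) were above the MSC libraries for it. Fibrillarin, with 204, 143, 117 and 157 CPM in TL2 and between 56.7 and 203 CPM in TL1, against 183, 135 and 140 CPM in MSC, had a log2 change of -0.01, and Ubtf and Polr1a lay below 0 at -0.28 and -0.22.

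By role the medians were 0.77 for the 3 box H/ACA genes, 0.37 for the 11 large-subunit genes, 0.36 for the 9 small-subunit genes, 0.35 for the 5 RNA polymerase I genes, 0.34 for the 3 box C/D genes and 0.30 for the 4 multifunctional genes, none with a call. Of the 90 other ribosome biogenesis genes 0 were called by edgeR, 11 had an unadjusted p under 0.05, 85 were above 0 and the median was 0.33. Ribosomal protein genes lay around 0, with Rpl3 higher (0.53), Rpl28 lower (-0.63) and a median of -0.06 over 79. Sat1, which breaks down polyamines (1.48), Prps2, which makes the sugar precursor of nucleotides (1.22), and the snoRNA host Snhg8 (1.16) were higher. In the Myc network, Mlx was higher (0.61) and Mxd4, a Max partner that opposes Myc, lower (-1.76), and Myc itself was not called at 0.93 ± 0.690 (edgeR adjusted p = 0.411); without TL2 3 its log2 change was 0.25. All 18 proliferation genes were above 0, with a median of 0.56 and 0 called by edgeR, and of the 11 stromal markers 3 were called lower (Cxcl12, Thy1 and Eng) and 0 higher, with 7 below 0 and 4 above (Nt5e at 3.33, Ly6a, Cd44 and Lepr). Of the haematopoietic markers 5 were tested, with Cd14 called higher (2.32) and Fcer1g lower (-2.36), and of the epithelial ones 3, all above 0 without a call; the summed level of 11 stromal markers was between 1449.6 and 9381 CPM in tumour lines, against 17734 to 25759.5 CPM in MSC. The part of these differences in the levels of the 39 genes was not tested.

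The third question was whether lines from the second round of tumours differed from the first. Of 13262 genes edgeR called 0% higher and 0% lower, and so 0 of the 39, and 0 of the 39 and 246 of all genes (1.85%) had an unadjusted p under 0.05; DESeq2 called 3 genes, none of them among the 39, and limma-voom 0. The median log2 change of the 39 was 0.11, against 0.017 over all genes, with 30 above 0, where 52.8% of all genes were. The median of the 39 was -0.16 without TL2 1 and -0.02 without TL1 3a, so its sign rested on single lines.

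Within the numbers in the titles, by which TL1 and TL2 libraries paired, the generations differed in opposite directions. This contrast was chosen after the values per library had been seen. In number 1, TL2 1 was above both TL1 lines for 39 of 39 genes, where 33.3% of all genes were above and 37.3% below both, and the median log2 change was 0.89. In number 2, 39 of 39 log2 changes were below 0 with a median of -0.70, and both TL2 lines lay below both TL1 lines for 35 of 39 genes, against 20.9% of all genes, and above both for 0, against 20.6%. In number 3, 37 of 39 were above 0 with a median of 0.33, all but Pes1 and Ubtf, and TL2 3 was above both TL1 lines for 26 of 39 and below both for 0, against 34% and 29.7% of all genes. Over all 12611 genes tested, 49.4%, 48.6% and 45.02% were above 0 in numbers 1, 2 and 3.

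Nop56 showed the pattern in its levels. It had 741 CPM in TL2 1, against 251 and 348 CPM in TL1 1a and 1b. In number 2 it had 361 and 188 CPM in TL2 2a and 2b, against 514 and 425 CPM in TL1 2a and 2b. In number 3 it had 274 CPM in TL2 3, against 121 and 309 CPM in TL1 3a and 3b, so the last pair overlapped. Gnl3 had 421 CPM in TL2 1, against 136 and 200 CPM in TL1 1a and 1b, and 149 and 116 CPM in TL2 2a and 2b, against 218 and 130 CPM in TL1 2a and 2b. No single gene of the 39 passed the test of the difference between numbers. For number 1 minus number 2 edgeR called 0% of 12611 genes higher and 0% lower, 0 of the 39 among them, while 27 of the 39 and 1855 of all genes (14.7%) had an unadjusted p under 0.05. Heatr1, a processome protein, had the smallest p of the 39, with a difference of 2.07 ± 0.465 on the log2 scale (edgeR adjusted p = 0.291). Number 1 minus number 2 was the largest of 3 such differences, with a median over the 39 genes of 1.62. The median was -0.60 for number 3 minus number 1, with 36 of 39 below 0, and 1.05 for number 3 minus number 2. Numbers 1 and 3 have 1 TL2 line each, and TL1 3a, the line lowest for 33 of the 39 genes, is 1 of 2 TL1 lines in number 3.

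**Figure D4:**
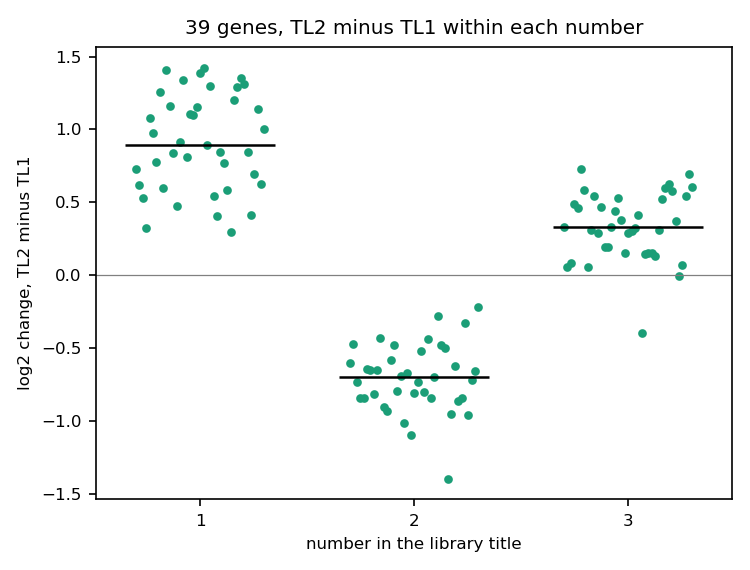
Log2 change, TL2 minus TL1, within each number of the library titles, for the 39 genes (points, in alphabetical order from left to right) with the median as a line. All points lie above 0 in number 1 (median 0.89) and below 0 in number 2 (median -0.70), and 37 of 39 lie above 0 in number 3 (median 0.33).

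The last question was how the 39 genes stood against Myc, library by library. The 4 libraries with the most Myc were Mut clone 2 (1987 CPM), Mut clone 1 (1762 CPM), TL2 3 (1042 CPM) and TL1 3b (620 CPM); the other 13 had between 94.9 and 232 CPM. The median deviation of the 39 genes was 0.76 and 0.58 in Mut clones 2 and 1 but -0.13 in TL2 3 and -0.20 in TL1 3b, below their median in both. The tumour lines highest for the 39 genes, TL2 1, TL1 2a and TL1 2b, had 207, 232 and 178 CPM of Myc, where the other tumour lines had between 94.9 and 1042 CPM, and TL1 3a had 132 CPM, close to the 137 and 136 CPM of the KO clones.

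**Figure D5:**
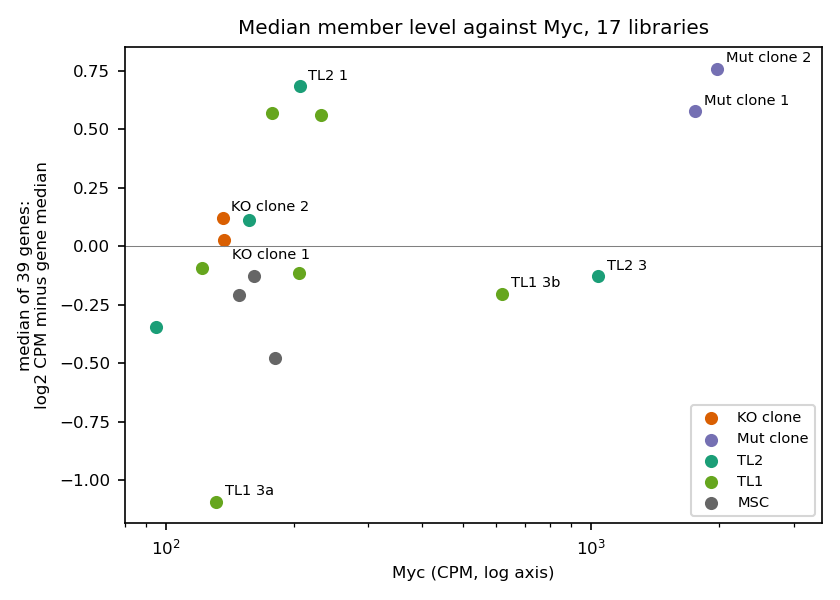
Median over the 39 genes of log2 CPM minus the gene's own median (vertical axis) against Myc in CPM (horizontal, log axis), 1 point per library, coloured by group. Both Mut clones lie at the upper right, TL2 3 and TL1 3b have high Myc with medians of -0.13 and -0.20, and the 3 lines at the upper left, TL2 1, TL1 2a and TL1 2b, have Myc between 178 and 232 CPM.

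Within groups, the slope of each gene on log2 Myc, from an edgeR fit of all 17 libraries with a term for each of the 5 groups, was called for 0 of the 39 genes, against 1.12% of 13795 genes with a positive slope (155) and 0.935% with a negative one (129). The median slope of the 39 was 0.02 log2 units per log2 unit of Myc, against -0.0099 over all genes. Of the 39, 24 were above 0, where 48.1% of all genes were. By limma-voom 0 were called too, and by edgeR 2 had an unadjusted p under 0.05, against 16.5% of all genes. These 2 were Wdr12 (0.30 ± 0.129, edgeR adjusted p = 0.266) and Wdr75 (0.21 ± 0.0816, edgeR adjusted p = 0.208), the next by p being Ncl (0.24 ± 0.124, edgeR adjusted p = 0.347). Odc1 had a slope of 0.15 ± 0.181 and the genes whose windows are printed above 0.03 (Nle1), 0.02 (Pes1) and 0.02 (Mybbp1a). Of the 18 proliferation genes 17 had a slope below 0, with a median of -0.17 and 0 called by edgeR, 1 of them at an unadjusted p under 0.05. Mycn, a paralogue of Myc at between 0 and 4.34 CPM, had a called negative slope (-4.26 ± 0.947, edgeR adjusted p = 0.0425).

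The slope depended on the term for groups and on single lines. Without a group term 10 of the 39 were called, all with a positive slope, against 7.9% of all genes with a positive one and 9.33% with a negative one; they were Dkc1, Fbl, Gnl2, Ncl, Nle1, Nop58, Odc1, Rrs1, Wdr12 (0.42 ± 0.0650, edgeR adjusted p = 0.000674) and Wdr75 (0.28 ± 0.0471, edgeR adjusted p = 0.00132). That fit includes the contrast of KO with Mut clones, in which all 10 were called. Over all genes the count of called slopes was 284, and it was 4 without TL2 3, 48 without TL1 3b, 473 without TL1 3a, and 167, 174 and 168 without MSC 1, TL2 2a and TL2 2b. The median slope of the 39 was 0.24 without TL2 3 and -0.08 without TL2 2b, with 0 of the 39 called in either. In the 10 tumour lines alone, with terms for the title number and the generation, the median was 0.44 and 0 of the 39 were called. In that fit 39 of 39 slopes were above 0. The share of all genes above 0 there is not given here, so that count cannot be read as particular to the 39. The 39 genes moved largely together from library to library, so these are not 39 separate results.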

How the data were processed

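RNA was measured in 17 libraries. Barcoded libraries of fragmented total RNA were read from 1 end at 60 bases, per the labels' protocols. The values deposited by the authors are raw read counts for 23420 gene symbols; 4 of its columns match no sample and were not used. The submitters' processing notes name the build mm10 and the tools DESeq2 1.6.3, HTSeq 0.6.1p1, TopHat2 2.0.10 and cutadapt. How strand was treated and which annotation was used is not given in the sources used here, so overlapping and antisense genes cannot be told apart.

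Differences were tested with edgeR 4.0.16 in R 4.3.3 (TMM scaling, filtering by expression, robust quasi-likelihood F test, Benjamini-Hochberg adjustment over all genes tested, called under 0.05). Tumour lines and MSC were fitted together (13 libraries), the clones alone (4 libraries), and the Myc slope over 17 libraries with a group term and log2 CPM of Myc at a prior count of 2. Alternatives were DESeq2 1.42.0, limma-voom (limma 3.58.1), other scalings and filters, and each library left out. The scripts were tested on simulated data. Totals were 12215025 to 15962341 counts per library; the precision is limited by 2 to 6 libraries a group. Replicate libraries all differed beyond sampling noise (lowest chi-square per degree of freedom 30.5).

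Deviations from group means correlated at r = 0.476, 0.376 and 0.490 between TL1 and TL2 of the numbers 1, 2 and 3, and between -0.03 and 0.20 with MSC, so the numbers pair TL1 with TL2 only. The 39 genes, the other gene lists and the tests were chosen with earlier results of these data known. The text names all 39 genes, Myc, Mycn, Rn45s and Trp53, and of each other list up to 4 called genes per direction by smallest p; Krt18 and Pdgfrb values are marker checks. Exon lengths were the union of exons over a gene's GENCODE M21 basic protein-coding transcripts, and promoter windows came from RefSeq, GRCm38.p6.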

Additional observations from a re-analysis of the deposited data

Results flagged for a closer look

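Of 84 groups of values checked for a single library far from the rest, 1 stood out. Dkc1, the box H/ACA pseudouridine synthase, had 48.3 CPM in TL1 3a, while the other 5 TL1 libraries lay between 120 and 202 CPM. On a log scale the gap to the nearest was 0.638 of the range of the group. Chance alone marks about 1 in 20 such groups. TL1 3a was also the lowest library for 33 of the 39 genes.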

How the results depend on the processing

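The number of the 39 genes called between KO and Mut clones and on the Myc slope depended on the libraries and the terms in the fit; no direction of a called value was reversed in the alternatives run. In tumour lines against MSC, DESeq2 called 2208 genes in place of 1147 and 1 of the 39, Odc1, as did summing the lines per title number (1 of the 39, adjusted p = 0.0277); TL1 alone gave 732 genes and TL2 alone 546. Library totals in place of TMM split the calls into 680 higher and 547 lower, against 512 and 635. Leaving out 1 library gave between 304 and 1532 genes and 0 to 1 of the 39. Between generations DESeq2 called 3 genes. In KO against Mut clones, DESeq2 called 3 of the 39 higher (Bysl, Gnl3, Rrn3), library totals moved the median of the 39 to -0.66 and that of all genes to -0.13, and a fit of all 17 libraries called 820 genes and 2 of the 39 lower (Wdr75 and Nle1). Leaving out 1 clone gave 1347 to 1755 genes and 2 to 7 of the 39. For the Myc slope, 14 genes were called in tumour lines only, 36 by the rank of Myc and 2377 without a group term, with 10 of the 39; leaving out 1 library gave 4 to 473. In paired fits the title number was a replicate block, and the Myc slope also had a term for generation. The slope was then called for 86 genes, with a median of 0.44 for the 39. Tumour lines against MSC gave 1686 genes, 0 of the 39 and a median of 0.31. The cause of these shifts was not tested. The block changed no call among the 39. With 2 clones a group, calls depend on single clones.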
